A study of Mus musculus with 6 samples.

Results

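The comparison described here sets primary mouse embryonic fibroblasts after 2 h in 1 mM hydrogen peroxide (H2O2) against untreated cells at 0 h. Its members are the arrays whose labels name these conditions, 2 of each, which makes 4 of the 6 arrays of the series. The other arrays hold cells after 4 h in H2O2, and they enter only the filter on dim genes and the estimate of spread. The cells are outgrowths of mouse embryos kept in DMEM with serum, and all groups share that medium. The sources used here name no strain, genotype, embryo age or passage. Per the labels, the arrays of a group come from independent experiments. The labels do not say what made them independent, so p-values measure the spread between these samples, which may be technical.

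No cells were kept for 2 h without H2O2, so time and handling cannot be told apart from the oxidant. Arrays of 1 time point also sat at the same place on each slide, and place and time cannot be told apart either. RNA was taken from whole cultures, and fewer cells of a type and less RNA per cell cannot be told apart. All 18 fibroblast markers were well above background on all 4 arrays. The collagen gene Col1a1 gave 146220 and 138320 in untreated cells, and Vim, which encodes the filament protein vimentin, gave 116100 and 112980. Ptprc, the pan-leukocyte marker CD45, gave 145 and 136, and the muscle regulator Myod1, the epithelial Epcam and the endothelial Cdh5 were not well above background in either group. Signals here are normalised so that the 75th percentile of each array is 1000. A log2 change is the mean of the 2 h arrays minus the mean of the untreated arrays, with its standard error (SE, n = 2 arrays per group).

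H2O2 crosses membranes and oxidises reactive cysteines. In fibroblasts it is known to stabilise Nrf2, which is otherwise held by Keap1 for degradation and which induces antioxidant genes together with small Maf proteins. It also activates the mitogen-activated protein (MAP) kinases, whose nuclear output is a burst of immediate early genes, among them the Fos, Jun and Egr families, followed by phosphatases and other inhibitors that end the signal. Oxidised DNA activates the kinases ATM and ATR, which stabilise p53, the activator of genes for arrest, repair and death.

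Many transcripts changed within 2 h, and among genes measured on all 4 arrays the changes of 8-fold or more were all rises. Of 17162 genes tested, 4088 rose (23.8%) and 2633 fell (15.3%) at a Benjamini-Hochberg adjusted p under 0.05 in limma. Rises of at least 2-fold numbered 1251 (7.29%) and falls of that size 585 (3.41%). Both 2 h arrays lay above both untreated arrays for 8248 genes (48.1%) and below them for 4702 (27.4%). Groups that do not overlap were thus common, and most single genes named below were chosen from those past the test. Clear groups in a named gene therefore follow largely from that choice. At 8-fold or more there were 376 rises and 8 falls, a count that includes genes above background in 1 group alone. A gene that passed the filter only through the group where it is bright had to differ, so the counts below rest on the 15518 genes well above background on all 4 arrays. Of these 3405 rose (21.9%), 2421 fell (15.6%), 606 rose at least 2-fold (3.91%) and 438 fell at least 2-fold (2.82%), with a median change of 0.11. At 4-fold or more there were 165 rises and 22 falls among them, and at 8-fold or more 57 rises and 0 falls. The 2 slides, each with 1 array of every time point, gave changes that correlated with r = 0.878 across genes, which are not independent replicates.

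The balance of rises and falls depended on how the arrays were put on 1 scale. With the 75th percentile 60.8% of the calls rose. With quantile normalization 2578 genes rose and 3260 fell (44.2% rose), and with median centring 1843 and 3822 (32.5%). With no scaling 1528 rose and 5704 fell (21.1%), and with scaling on the spike-in spots 1458 and 9194 (13.7%). These 4 settings moved the median of all genes by -0.12, -0.20, -0.34 and -0.45. Normexp background correction gave 816 rises and 747 falls with the 75th percentile (52.2%) and 2711 and 3417 with quantile normalization (44.2%, median moved by -0.11). Most gene lists are therefore given with the range or the sign of their median over these scalings (over members above background on all 4 arrays), and changes are relative to the 75th percentile. Small rises were the calls most open to the scaling. Of 2799 rises under 2-fold on all 4 arrays, 48.3% kept the call with quantile normalization, 21.3% with median centring, 11.8% with no scaling, 9.29% with spike-in scaling, 8.90% with normexp and the 75th percentile and 51.1% with normexp and quantile. Of the 606 rises of 2-fold or more, 95.2% to 98.2% kept it in these settings, except 65.7% with normexp and the 75th percentile. That setting kept 22.8% of the 1983 falls under 2-fold and 66.4% of the 438 larger ones, and the other settings kept at least 97.2% of both. The counts also fell by over 1.5 times without any 1 of the 4 arrays. They were 1933 and 1616 without untreated replicate 1, 1958 and 1693 without untreated replicate 2, 2183 and 1399 without 2 h replicate 1, and 2041 and 1587 without 2 h replicate 2.

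**Figure D1:**
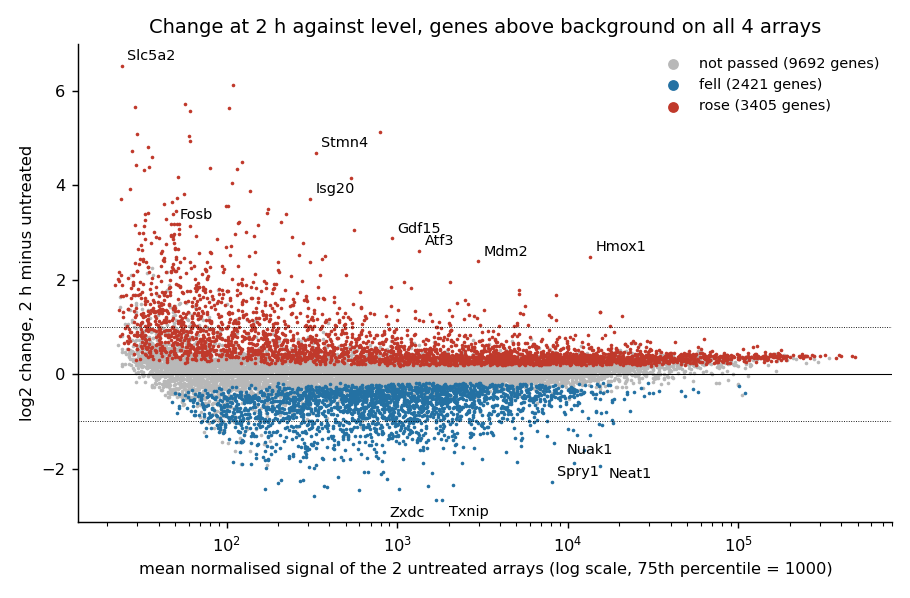
Log2 change at 2 h (vertical axis) against the mean normalised signal of the untreated arrays (horizontal log axis) for the 15518 genes above background on all 4 arrays; red genes rose, blue genes fell, grey genes did not pass, and dotted lines mark 2-fold. Rises of more than 16-fold sit at the dim left side, Hmox1 and Mdm2 are large rises among bright genes, and the falls end near -2.67.

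Rises of 2-fold or more were more frequent among dim genes. In the dimmest quintile of the genes above background on all 4 arrays, by mean level over all arrays, 8.60% rose at least 2-fold and 3.54% fell at least 2-fold. In the brightest quintile these shares were 0.64% and 0.29%. The brightest quintile had the highest share of rises of any size, 36.0%, with a median change of 0.22.

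Known Nrf2 targets and related genes are given by role, beginning with Hmox1, Slc7a11 and Srxn1. Hmox1 encodes heme oxygenase 1, which breaks heme down to biliverdin, iron and carbon monoxide. Its signal was 13907 and 13024 in untreated cells and 77013 and 73710 at 2 h (log2 change 2.48 ± 0.08, adjusted p = 0.000189). Slc7a11, which encodes the cystine importer that feeds glutathione synthesis, gave 336 and 348 in untreated cells and 985 and 1124 at 2 h (1.62 ± 0.08, adjusted p = 0.000511). In both genes each 2 h array lay above each untreated array with a wide gap, although the other probes of Slc7a11 gave 1.09 (adjusted p = 0.0180) and 0.52 (adjusted p = 0.581). Srxn1 encodes sulfiredoxin, which repairs over-oxidised peroxiredoxins, and it gave 8679.6 and 8326 in untreated cells and 19485 and 18248 at 2 h (1.15 ± 0.08, adjusted p = 0.00117). Its other probes gave 0.62 and 0.67, so the size of that rise differed between probes.

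The 250 bases before the start of Srxn1 are shown because this gene holds 2 matches to the AP-1 letters TGANTCA, and AP-1 genes rose in the same cells. The sequence is from RefSeq (GRCm38.p6, chr2:152105274-152105523, plus strand) and is printed 5′ to 3′ with the matches in capitals, at positions -102 to -96 and -45 to -39 before the start.
Srxn1: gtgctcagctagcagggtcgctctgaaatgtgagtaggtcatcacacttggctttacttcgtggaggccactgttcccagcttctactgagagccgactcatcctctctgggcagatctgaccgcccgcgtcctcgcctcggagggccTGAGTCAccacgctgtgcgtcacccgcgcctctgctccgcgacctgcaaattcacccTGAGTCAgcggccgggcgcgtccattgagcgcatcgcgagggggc
These letters, searched on both strands, occur in 6.85% of 27025 promoter windows of that length. A match is a description of the letters and not a measured site.

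Within the thioredoxin and peroxide group 7 genes were measured, of which 6 rose, 0 fell and 1 did not pass (median 0.47; 0.02 to 0.47 over the scalings; 2 to 4 rises with the other scalings). Txnrd1, thioredoxin reductase, gave 27536 and 25573 in untreated cells and 41199 and 41118 at 2 h (0.63 ± 0.08), and Sesn2, a stress sensor of the sestrin family that is a target of p53 as well, changed by 1.02 ± 0.06. Txn1, thioredoxin itself, had 0.34 (adjusted p = 0.0570; 0.00879 with the replicate block, a term for the slide). Of 18 glutathione genes 8 rose, 3 fell and 7 did not pass (median 0.29, below 0 with no scaling and spike-in scaling; 2 to 7 rises with the other scalings). Gclc, the catalytic subunit of glutamate-cysteine ligase, rose by 0.49 ± 0.05, while Gclm, its modifier subunit, had 0.42 (adjusted p = 0.0703). Chac1, which degrades glutathione, fell from 11123 and 11384 to 4699 and 4579.8 (-1.28 ± 0.06), in the opposite direction to the transcripts of Slc7a11 and Gclc.

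Among 7 genes of the heme and iron group 2 rose (28.6%), 1 fell (14.3%) and 4 did not pass. All genes on all 4 arrays gave 21.9% and 15.6%, so these counts show no trait of the group. Its median was 0.28, and below 0 with quantile normalization, no scaling, spike-in scaling and normexp with quantile. The other scalings gave 1 to 2 rises. Ferritin heavy chain Fth1, which stores iron, rose by 0.58 ± 0.09, and the iron exporter ferroportin, Slc40a1, fell by 0.61 ± 0.06 on the log2 scale. Ferritin light chain Ftl1 had 0.28 (adjusted p = 0.0563, and 0.0146 with the replicate block). Biliverdin reductase Blvrb had 0.57 (adjusted p = 0.181, and 0.00724 with the replicate block). Among 16 quinone and aldehyde reductases and NADPH enzymes 9 rose, 0 fell and 7 did not pass (median 0.26, below 0 with no scaling and spike-in scaling). The other scalings gave 0 to 4 rises and 0 to 6 falls. The quinone reductase Nqo1, a classical Nrf2 target, gave 3068 and 3027 in untreated cells and 3708 and 3642 at 2 h (0.27 ± 0.06, adjusted p = 0.0215), a small rise on the 75th percentile scale that turned to a change below 0 with no scaling and with spike-in scaling.

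Of 13 Nrf2 partners and inhibitors 8 rose, 0 fell and 5 did not pass (median 0.52, 0.07 to 0.52 over the scalings). The other scalings gave 3 to 6 rises and 0 to 5 falls. All 3 small Maf genes rose: Mafg by 1.01 ± 0.07, Maff by 0.90 ± 0.06 and Mafk by 0.89 ± 0.08. These proteins have no activation domain of their own and bind antioxidant elements as partners of Nrf2 or of its repressor Bach1. Nfe2l2, which encodes Nrf2, gave 8479.5 and 8391 in untreated cells and 12517 and 12714 at 2 h (0.58 ± 0.05). Keap1, its inhibitor, gave 9814 and 9283 in untreated cells and 9840.1 and 8218 at 2 h (-0.09 ± 0.10, adjusted p = 0.543), with overlapping groups. Sqstm1, the autophagy receptor that binds Keap1, rose by 0.58 ± 0.10.

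Enzymes that remove superoxide and H2O2 directly moved little. Of 25 catalase, superoxide dismutase, glutathione peroxidase and related genes 8 rose, 0 fell and 17 did not pass, and none changed 2-fold (median 0.25, below 0 with no scaling and spike-in scaling). The other scalings gave 0 to 1 rises and 0 to 10 falls. Cat, which encodes catalase, gave 1978 and 2078 in untreated cells and 2233 and 2541 at 2 h (0.23 ± 0.09, adjusted p = 0.109; 0.0286 with the replicate block). Of 8 metallothionein and zinc response genes 2 rose, 0 fell and 6 did not pass.

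Of 20 Fos, Jun and ATF genes 12 rose, 1 fell and 7 did not pass, 5 of the rises by at least 2-fold (median 0.58; 0.13 to 0.58 over the scalings; 6 to 10 rises with the other scalings). Fosb gave 51.3 and 46.9 in untreated cells and 355 and 552 at 2 h (3.17 ± 0.22, adjusted p = 0.00103). Atf3, a stress-induced bZIP repressor, gave 1362 and 1330.5 in untreated cells and 8227 and 8204 at 2 h (2.61 ± 0.06, adjusted p = 0.000115). The 2 h arrays of both genes lay far above the untreated arrays, and the arrays of Atf3 agreed more closely than those of Fosb. Batf rose by 1.90 ± 0.16, Junb by 1.33 ± 0.06 and Fosl1 by 1.27 ± 0.08. The founding members moved less: Fos gave 159.5 and 168 in untreated cells and 239 and 262 at 2 h (0.61 ± 0.09) and Jun 2361 and 2463 in untreated cells and 3736 and 3688 at 2 h (0.62 ± 0.06). Cebpd, a bZIP factor of acute inflammation, was the one member that fell, from 15670 and 15896 to 7165 and 7765 (-1.08 ± 0.06).

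Of 38 other early genes 21 rose, 8 fell and 9 did not pass (median 0.48, 0.03 to 0.48 over the scalings). The other scalings gave 13 to 20 rises and 2 to 16 falls. Egr4 gave 138 and 131 in untreated cells and 731 and 791 at 2 h (2.50 ± 0.08, adjusted p = 0.000189). Within this zinc finger family the change was 1.21 in Egr3, 0.77 in Egr2 and 0.62 in Egr1. The orphan nuclear receptor Nr4a1 gave 21047 and 20262 in untreated cells and 49883 and 46567 at 2 h (1.22 ± 0.07), and the antiproliferative gene Btg2, a target of p53 and of growth factors alike, gave 1921 and 2116 in untreated cells and 5099.7 and 5241 at 2 h (1.36 ± 0.08, with 2.05 and 1.97 on its other probes). Mycn, of the Myc family, fell from 148 and 149.6 to 57.2 and 62.1 (-1.32 ± 0.06). Among 14 Kruppel-like factors 3 rose, 4 fell and 7 did not pass. Klf9, a repressor induced by hormones and oxidants, rose by 1.16 ± 0.07, and Klf15, a factor of fasting metabolism, fell by 0.93 ± 0.13.

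**Figure D2:**
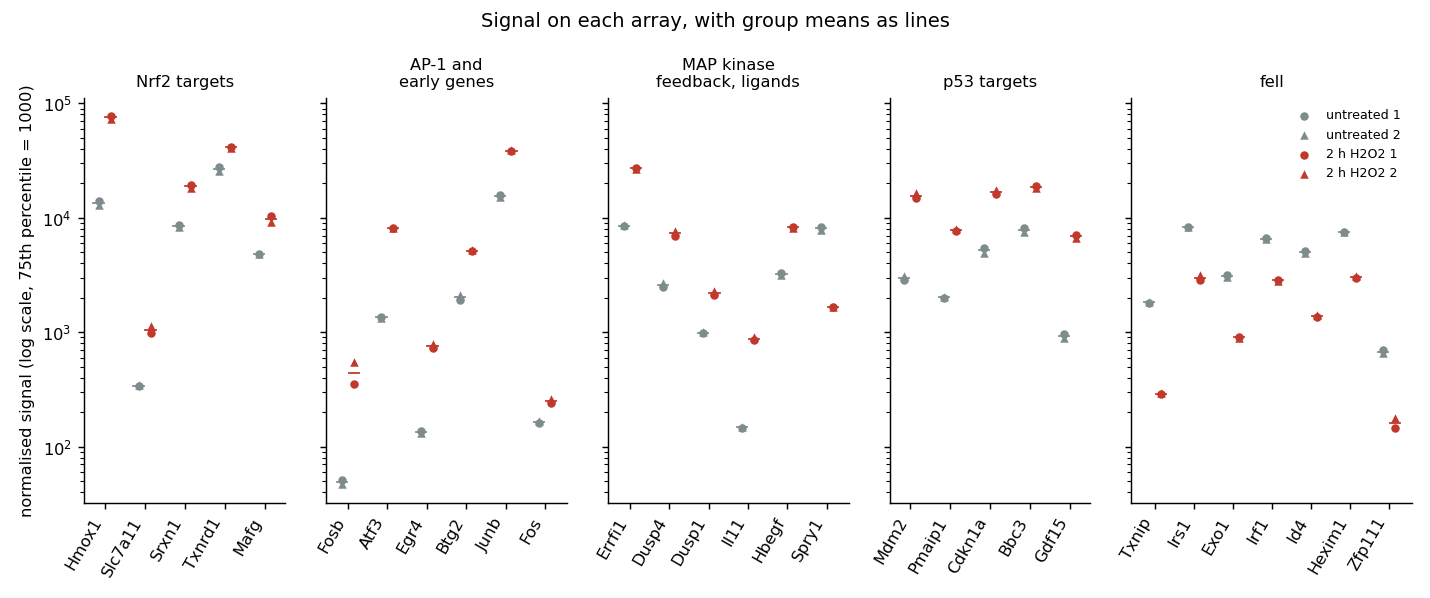
Normalised signal on each of the 4 arrays (log axis) for genes of each role, with grey for untreated cells, red for 2 h H2O2, circles for replicate 1, triangles for replicate 2 and short lines for group means on the log scale. The genes shown were chosen from those past the test, and their groups do not overlap. Of all genes tested, 48.1% had both 2 h arrays above both untreated arrays and 27.4% had both below. Fosb is the gene shown whose 2 h arrays lie farthest apart, at 355 and 552.

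Feedback inhibitors of the MAP kinase pathway moved in both directions. Of 23 phosphatase, Sprouty and related genes 10 rose, 4 fell and 9 did not pass (median 0.19, below 0 with median centring, no scaling and spike-in scaling; 9 to 10 rises with the other scalings). 7 rises and 2 falls reached 2-fold. Errfi1, which inhibits the EGF receptor directly, gave 8411 and 8701 in untreated cells and 27454 and 26944 at 2 h (1.67 ± 0.06, adjusted p = 0.000220). The dual-specificity phosphatases Dusp4, Dusp6 and Dusp1, which dephosphorylate MAP kinases, rose by 1.49 ± 0.10, 1.20 ± 0.08 and 1.15 ± 0.07. Spry2 and Spry1 encode paralogous inhibitors of receptor tyrosine kinase signalling. Spry2 gave 1824 and 1806 in untreated cells and 3551 and 3565 at 2 h (0.97 ± 0.05), and Spry1 gave 8327 and 7837 in untreated cells and 1674 and 1666 at 2 h (-2.27 ± 0.06, adjusted p = 0.000145). One paralog was thus higher and the other lower on both 2 h arrays, and neither had overlapping groups. Of all genes tested, 48.1% had both 2 h arrays above both untreated arrays and 27.4% had both below. Socs1, an inhibitor of cytokine receptor signalling, fell by 1.13 ± 0.07.

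Of 3 ligands of the EGF receptor family above background on all 4 arrays 2 rose, 0 fell and 1 did not pass (median 1.36). Ereg (epiregulin) gave 84.6 and 96.4 in untreated cells and 295 and 291 at 2 h (1.70 ± 0.11) and Hbegf (heparin-binding EGF-like factor) 3278 and 3139 in untreated cells and 8321 and 8183 at 2 h (1.36 ± 0.06, adjusted p = 0.000346). Areg (amphiregulin) was not well above background in untreated cells, at 14.4 and 4.78. It gave 179.9 and 163 at 2 h, a rise of at least 8.54-fold. A gene in that state had to differ, so no p-value is given for it. Egf gave 47.9 and 58.0 in untreated cells and 25.5 and 23.2 at 2 h, and 1 of its 2 h arrays was not well above background.

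Btg2, Dusp1 and Areg hold the 8 letters of the cAMP response element, TGACGTCA, in the 250 bases before their starts. These windows were picked because the 3 genes rose and hold the letters, which occur in 1.60% of the 27025 promoter windows. The share among all genes that rose was not computed, so no enrichment can be read from them. Such matches describe letters and not measured sites. The sequences are from RefSeq (GRCm38.p6), 5′ to 3′ on the gene's strand. Capitals mark the element, at -166 to -159 in Btg2, -143 to -136 in Dusp1 and -61 to -54 in Areg. In Dusp1 they also mark a match to the antioxidant element TGACNNNGC on the other strand at -133 to -125 (letters in 10.1% of windows), and in Areg the TATA letters TATAAA at -31 to -26 (13% of windows). The windows lie at chr1:134079156-134079405 (minus strand), chr17:26508473-26508722 (minus strand) and chr5:91139349-91139598 (plus strand).
Btg2: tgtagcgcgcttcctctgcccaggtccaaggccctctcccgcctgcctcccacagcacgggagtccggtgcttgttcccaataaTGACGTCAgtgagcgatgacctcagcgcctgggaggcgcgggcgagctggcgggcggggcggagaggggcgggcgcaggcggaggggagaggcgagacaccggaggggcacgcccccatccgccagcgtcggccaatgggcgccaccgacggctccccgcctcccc
Dusp1: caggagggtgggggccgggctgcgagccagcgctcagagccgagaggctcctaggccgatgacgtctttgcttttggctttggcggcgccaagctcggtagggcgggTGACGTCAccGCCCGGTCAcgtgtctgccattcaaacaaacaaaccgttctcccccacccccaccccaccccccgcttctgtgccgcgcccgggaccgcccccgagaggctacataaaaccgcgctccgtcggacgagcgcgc
Areg: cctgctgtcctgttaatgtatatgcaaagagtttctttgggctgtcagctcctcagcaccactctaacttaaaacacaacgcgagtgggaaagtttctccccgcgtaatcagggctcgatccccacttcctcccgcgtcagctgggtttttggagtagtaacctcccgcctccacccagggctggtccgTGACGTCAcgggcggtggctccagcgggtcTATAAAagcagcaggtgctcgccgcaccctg

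Of 28 secreted stress factors and chemokines 11 rose, 4 fell and 13 did not pass (median 0.25, below 0 with no scaling and spike-in scaling). Under the other scalings 5 to 10 rose and 2 to 12 fell. Gdf15, a stress hormone of the TGF-beta family, gave 971 and 894 in untreated cells and 7061 and 6699 at 2 h (2.88 ± 0.10, adjusted p = 0.000220). The cytokine Il11 gave 147 and 148 in untreated cells and 862 and 901 at 2 h (2.58 ± 0.08, adjusted p = 0.000215). Both were several times higher on each 2 h array than on either untreated array. Ptgs2, the inducible cyclooxygenase, rose by 1.24 ± 0.09 and the angiogenic factor Vegfa by 0.84 ± 0.05. The neutrophil attractant Cxcl5 fell by 1.19 ± 0.08, Bmp4 by 1.04 ± 0.08 and Cxcl12, a chemokine that retains stem cells, by 0.58 ± 0.07 (with 0.10 on its other probe, adjusted p = 0.482). Among 18 NF-kB subunits and feedback inhibitors 4 rose, 5 fell and 9 did not pass. None of the rises there reached 2-fold, and Tnip2, an inhibitor of NF-kB activation, changed by -1.24 ± 0.09.

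Targets of p53 for feedback and arrest had the highest median of the lists with at least 10 members above background on all 4 arrays. Of 24 members 15 rose, 5 fell and 4 did not pass, 7 of the rises by at least 2-fold (median 0.67; 0.22 to 0.67 over the scalings; 9 to 15 rises with the other scalings). Mdm2, the ubiquitin ligase that degrades p53, gave 2852 and 3117 in untreated cells and 14805 and 16521 at 2 h (2.39 ± 0.09, adjusted p = 0.000246, with 2.44 on its other probe). Cdkn1a encodes p21, which inhibits cyclin-dependent kinases, and it gave 5431 and 4969 in untreated cells and 16284 and 17347 at 2 h (1.69 ± 0.10, adjusted p = 0.000700). No array of one group reached the other, and 48.1% of all genes tested had both 2 h arrays above both untreated arrays. Trp53inp1, Plk3 and Ccng1, further p53 targets, rose by 1.08, 1.12 and 0.66. Trp53 itself had 0.31 (adjusted p = 0.126).

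The falls in this group were Ccng2 (-0.87), Sesn1 (-0.47), Gadd45g (-0.47), Sesn3 (-0.35) and Mdm4 (-0.28, with 0.47 and an adjusted p of 0.00693 on another probe and 0.10 when its probes are averaged). Ccng2, Sesn1 and Sesn3 are known targets of FoxO factors too. Within the sestrins, the paralog Sesn2 rose while Sesn1 and Sesn3 fell.

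Of 21 p53 targets in cell death 10 rose, 3 fell and 8 did not pass (median 0.30, below 0 with no scaling and spike-in scaling). Under the other scalings 5 to 9 rose and 0 to 7 fell. Pmaip1, which encodes the BH3-only protein Noxa, gave 2010.4 and 2044 in untreated cells and 7654 and 7945 at 2 h (1.94 ± 0.06, adjusted p = 0.000169). Bbc3, which encodes Puma, gave 8082 and 7516 in untreated cells and 18911 and 18310 at 2 h (1.26 ± 0.08). The death receptor gene Eda2r rose by 1.48 ± 0.09 and Pidd1, the platform of the PIDDosome, by 1.30 ± 0.06. Among 16 p53 targets in repair and metabolism 5 rose, 2 fell and 9 did not pass. Polk, a translesion polymerase, rose by 1.06 ± 0.05, while the damage sensors of nucleotide excision repair, Xpc and Ddb2, had -0.51 (adjusted p = 0.0132) and -0.51 (adjusted p = 0.0460; 0.0525 with the replicate block). Outside the p53 targets, 15 genes of the Bcl2 family gave 4 rises and 2 falls. Mcl1, a short-lived survival protein's gene, rose by 0.69 (with 0.06 on its other probe, adjusted p = 0.623), and the BH3-only gene Bmf fell by 1.00.

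The windows before Mdm2 and Cdkn1a are shown because both genes are textbook p53 targets that rose. Capitals mark matches to the p53 response decamer, by its name, found on either strand: 1 in Mdm2 at -186 to -177 and 2 in Cdkn1a at -73 to -64 and -51 to -42. The decamer occurs in 7.16% of the 27025 promoter windows, and a window before the outermost start does not cover internal promoters or distant elements. These matches, too, describe letters and not measured sites. The sequences are from RefSeq (GRCm38.p6) at chr10:117710759-117711008 (minus strand) and chr17:29090729-29090978 (plus strand).
Mdm2: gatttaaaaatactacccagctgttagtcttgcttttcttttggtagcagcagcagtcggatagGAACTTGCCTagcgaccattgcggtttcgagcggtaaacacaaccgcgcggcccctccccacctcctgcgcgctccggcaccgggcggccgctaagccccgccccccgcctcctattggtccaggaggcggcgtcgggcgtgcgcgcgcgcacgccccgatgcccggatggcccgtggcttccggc
Cdkn1a: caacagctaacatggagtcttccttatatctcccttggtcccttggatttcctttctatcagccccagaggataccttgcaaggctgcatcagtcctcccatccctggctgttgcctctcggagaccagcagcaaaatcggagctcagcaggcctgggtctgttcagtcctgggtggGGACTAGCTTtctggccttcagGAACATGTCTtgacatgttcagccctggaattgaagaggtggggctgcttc

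The protein stress pathways showed smaller and mixed changes. Of 30 genes of the integrated stress response 11 rose, 3 fell and 16 did not pass (median 0.16, below 0 with median centring, no scaling and spike-in scaling). Under the other scalings 2 to 6 rose and 2 to 17 fell. Ppp1r15a, the phosphatase subunit that restores translation, rose by 0.76 ± 0.05. Atf4, the central factor of this response, had 0.08 ± 0.07 (adjusted p = 0.398), and Ddit3, which encodes Chop, had -0.32 (adjusted p = 0.0683; 0.0210 with the replicate block). Trib3 fell by 0.37 ± 0.07. Of 30 genes of the unfolded protein response in the endoplasmic reticulum 12 rose, 3 fell and 15 did not pass, and the larger falls were in Syvn1, the ligase of protein disposal there (-1.03 ± 0.07), and Herpud1, its partner (-0.83 ± 0.09). Of 35 heat shock genes 14 rose, 3 fell and 18 did not pass. Hspa1a, the inducible Hsp70, gave 1389 and 1445 in untreated cells and 3126 and 3059 at 2 h (1.13 ± 0.06), and its co-chaperone Bag3 rose by 0.80 ± 0.08. The medians of these last 2 lists were 0.21 and 0.21, and each was below 0 with no scaling and spike-in scaling. Under the other scalings 0 to 4 genes of the unfolded protein response rose and 2 to 16 fell. For the heat shock genes 3 to 5 rose and 0 to 17 fell.

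FoxO targets fell more often than they rose. Of 21 FoxO targets and Txnip-family genes 2 rose, 11 fell and 8 did not pass (median -0.35; -0.80 to -0.31 over the scalings). Txnip, the thioredoxin-binding inhibitor of glucose uptake, gave 1813 and 1854 in untreated cells and 289 and 293 at 2 h (-2.66 ± 0.05, adjusted p = 9.66e-05). The ubiquitin ligase subunit Fbxo32 (atrogin-1) gave 1416 and 1416 in untreated cells and 513 and 460.3 at 2 h (-1.54 ± 0.20), and the insulin receptor substrate Irs1 gave 8255 and 8239 in untreated cells and 2847 and 3153 at 2 h (-1.46 ± 0.07), although another probe of Irs1 had 0.21 (adjusted p = 0.879). The 2 h arrays lay below the untreated arrays in all 3, as they did in 27.4% of all genes tested. Cited2 fell by 0.83 ± 0.10. The rises in the list were Gabarapl1 (0.68), an autophagy protein's gene, and Bcl6 (0.61), a transcriptional repressor.

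DNA repair genes also fell more often than they rose. Of 31 homologous recombination and Fanconi genes 1 rose, 14 fell and 16 did not pass (median -0.16; -0.61 to -0.07 over the scalings). Exo1, the nuclease that resects DNA ends, gave 3180.4 and 3065 in untreated cells and 913 and 896 at 2 h (-1.79 ± 0.06, adjusted p = 0.000191). The nuclease scaffold Slx4 fell by 1.00 ± 0.07. Brca1 gave 1479 and 1408 in untreated cells and 879 and 886 at 2 h (-0.71 ± 0.06) and Brca2 1043 and 1152 in untreated cells and 744 and 826 at 2 h (-0.48 ± 0.09). Of 52 genes of the other repair pathways 6 rose, 21 fell and 25 did not pass (median -0.14; -0.59 to -0.10 over the scalings). Artemis, Dclre1c, an end-joining nuclease, fell by 1.14 ± 0.08, and the ligase of that pathway, Lig4, by 0.73 ± 0.06.

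Of 19 damage kinases and mediators 0 rose, 7 fell and 12 did not pass (median -0.23; -0.69 to -0.22 over the scalings). Rnf8 and Rnf168, the ubiquitin ligases that mark chromatin around breaks, fell by 0.99 ± 0.06 and 0.77 ± 0.14, and Atm gave 429 and 449 in untreated cells and 347 and 371 at 2 h (-0.29 ± 0.06).

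Zinc finger genes fell in large number. Of 283 genes named Zfp 23 rose, 147 fell and 113 did not pass, 55 of the falls by at least 2-fold (median -0.39; -0.84 to -0.25 over the scalings). The share that fell, 51.9%, stands against 15.6% of all genes on all 4 arrays. The Krüppel-type gene Zfp111 gave 697 and 656 in untreated cells and 145 and 178 at 2 h (-2.07 ± 0.12, adjusted p = 0.000664). The list also held exceptions, such as Zfp819, which gave 45.5 and 29.4 in untreated cells and 883 and 879 at 2 h (4.59 ± 0.21). Of 56 Zbtb, Zscan, Zkscan and Zxd genes 8 rose, 25 fell and 23 did not pass (median -0.26; -0.71 to -0.17 over the scalings), with falls of 1.80 in Zscan22 and 1.75 in Zbtb9.

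Ubiquitin ligase genes fell more often than they rose. Of 99 cullin adaptors 9 rose, 36 fell and 54 did not pass (median -0.15; -0.60 to -0.12 over the scalings), and of 105 Trim and Rnf ligases 12 rose, 37 fell and 56 did not pass (median -0.11; -0.56 to -0.03). Trim13, a ligase of the endoplasmic reticulum, gave 1044 and 1010.5 in untreated cells and 182 and 196 at 2 h (-2.44 ± 0.07, adjusted p = 0.000155). Fbxo5 (Emi1), an inhibitor of the anaphase-promoting complex, gave 3657 and 3441 in untreated cells and 1559.8 and 1463 at 2 h (-1.23 ± 0.07). Rnf169, which binds ubiquitin at breaks, changed by -1.57 ± 0.08, and the cullin-3 adaptor Klhl8 by -1.25 ± 0.06. The groups of all 4 genes were clear of each other, and 27.4% of all genes tested had both 2 h arrays below both untreated arrays. Of 63 deubiquitinating enzymes 6 rose, 15 fell and 42 did not pass.

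Genes for transcription and RNA processing moved both ways, as did all genes on all 4 arrays, of which 21.9% rose and 15.6% fell. Of 81 RNA polymerase II, Mediator and general factor genes 9 rose (11.1%), 15 fell (18.5%) and 57 did not pass. Of 54 elongation, cleavage, termination and Integrator genes 13 rose (24.1%), 12 fell (22.2%) and 29 did not pass, shares not far from those of all genes. Hexim1, which holds the elongation kinase P-TEFb inactive, gave 7518 and 7486 in untreated cells and 2986 and 3082 at 2 h (-1.31 ± 0.06, adjusted p = 0.000420, with -1.02 on its other probe). The TFIID subunit gene Taf5 fell by 1.42 ± 0.06 and the poly(A) polymerase gene Papolg by 1.50 ± 0.07. In the other direction Cstf3, a subunit of the cleavage stimulation factor, rose by 1.05 ± 0.05, with 0.09 on its other probe (adjusted p = 0.433). Aff4, the scaffold of the super elongation complex, rose by 0.89 ± 0.05, with 0.29 on another probe (adjusted p = 0.0301) and 0.54 and 0.21 on probes that did not pass. Of 106 splicing factors 36 rose, 12 fell and 58 did not pass, and the other scalings gave 1 to 11 rises and 6 to 54 falls. Clk2, a kinase of SR proteins, fell by 1.33 ± 0.07. Of 50 mRNA decay genes 8 rose (16%), 12 fell (24%) and 30 did not pass. Of 77 histone methyltransferase and demethylase genes 6 rose, 21 fell and 50 did not pass: the arginine methyltransferase gene Prmt6 fell by 1.27 ± 0.09 (with 0.70 on another probe, adjusted p = 0.0213) and the demethylase gene Kdm6b rose by 0.94 ± 0.11.

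Innate immune genes fell more often than they rose. Of 46 interferon response genes 3 rose, 21 fell and 22 did not pass (median -0.34; -0.79 to -0.19 over the scalings). The transcription factor Irf1 gave 6620.3 and 6495 in untreated cells and 2877 and 2789.6 at 2 h (-1.21 ± 0.06, adjusted p = 0.000436), Stat2 2280 and 2219 in untreated cells and 969 and 924 at 2 h (-1.25 ± 0.06), and Parp14, an ADP-ribosyltransferase, 638 and 664 in untreated cells and 254 and 269 at 2 h (-1.31 ± 0.08). The 2 h level of each was under its untreated level on both slides. Of the 3 rises, Irf2 and Dhx58 had 0.37 and 0.59, and the exonuclease gene Isg20 had the largest, with 306 and 309.9 in untreated cells and 4072 and 4034 at 2 h (3.72 ± 0.08), and its position next to Aen is described below with the other neighbours. Of 21 genes of the Toll-like, NOD and RNA sensor pathways 1 rose, 9 fell and 11 did not pass (median -0.25; -0.70 to -0.17 over the scalings), and the adaptor gene Mavs fell by 0.49 ± 0.11.

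Of the Hox genes 3.45% rose and 34.5% fell, against 21.9% and 15.6% of all genes on all 4 arrays, while developmental signalling genes moved both ways. Of 29 Hox genes 1 rose, 10 fell and 18 did not pass (median -0.26; -0.71 to -0.11 over the scalings): Hoxd4 gave 651 and 821 in untreated cells and 256 and 234 at 2 h (-1.58 ± 0.13), Hoxa9 fell by 1.09 ± 0.07, and Hoxb9 rose by 0.53 ± 0.07. Of 33 TGF-beta, BMP and Id genes 8 rose (24.2%), 7 fell (21.2%) and 18 did not pass. Id4, an inhibitor of bHLH factors, gave 5137 and 4894 in untreated cells and 1348 and 1420.1 at 2 h (-1.86 ± 0.06, adjusted p = 0.000220), and the receptor decoy Bambi and the inhibitory Smad6 fell by 0.97 ± 0.06 and 0.95 ± 0.11. The co-repressor genes Tgif1 and Skil rose by 0.83 ± 0.08 and 0.79 ± 0.10. Of 44 Notch, Wnt and Hedgehog genes 10 rose (22.7%), 17 fell (38.6%) and 17 did not pass. The Wnt receptor genes Fzd8 and Fzd5 fell by 1.44 ± 0.12 and 1.24 ± 0.09, and the Notch effector Heyl rose by 1.78 ± 0.06.

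Of 26 SRF and YAP targets 5 rose, 8 fell and 13 did not pass. The YAP targets that fell by most were Ajuba with 2100.4 and 2709.8 in untreated cells and 627 and 669.8 at 2 h (-1.88 ± 0.13), Amotl2 with 5428 and 5175 in untreated cells and 1872 and 1824 at 2 h (-1.52 ± 0.06) and Ankrd1 with 1369 and 1377 in untreated cells and 604 and 614 at 2 h (-1.17 ± 0.05). Ajuba and Amotl2 encode scaffolds that act on the Hippo pathway itself. Of 61 centrosome genes 5 rose, 16 fell and 40 did not pass (median -0.11; -0.56 to -0.08 over the scalings), and Tube1, epsilon-tubulin, gave 609 and 582 in untreated cells and 105 and 113 at 2 h (-2.44 ± 0.11). Among the fibroblast markers Pdgfra, the platelet-derived growth factor receptor, gave 3032 and 3181 in untreated cells and 1440.5 and 1500.3 at 2 h (-1.08 ± 0.08), with 0.04 on another probe, and Twist1 fell by 0.65 ± 0.08. Col1a1 and Vim had 0.33 and 0.39, changes that turned below 0 with spike-in scaling and in some other scalings.

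**Figure D3:**
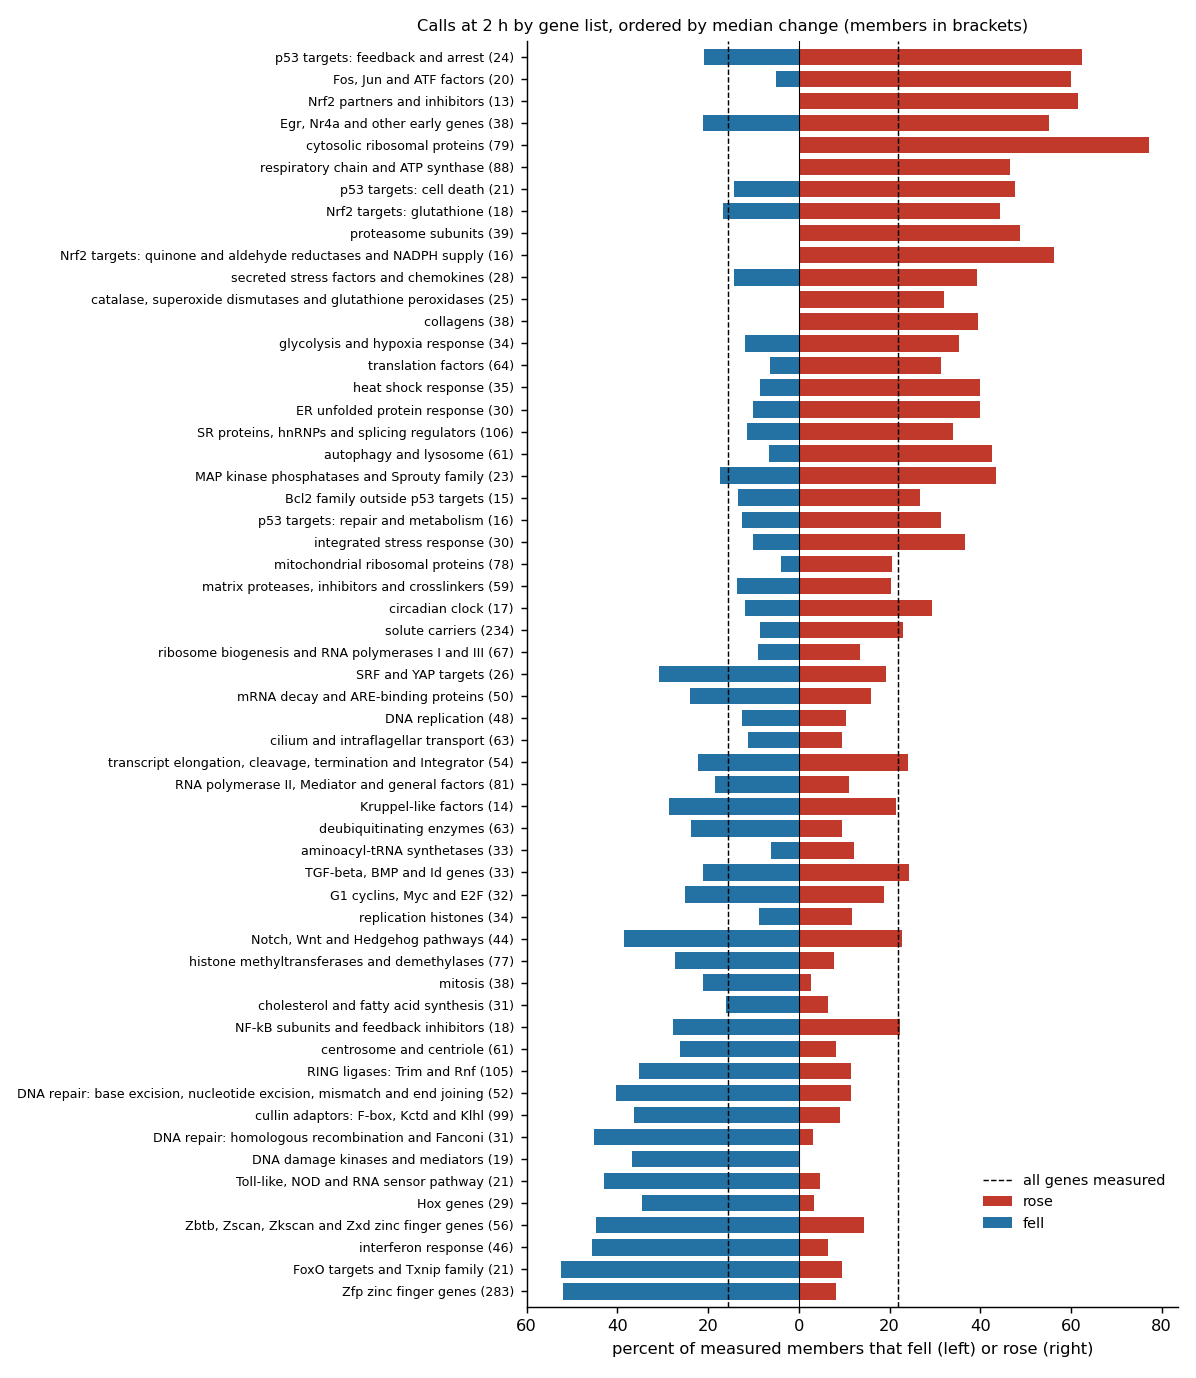
Percent of each gene list's measured members that rose (red, right) or fell (blue, left) at 2 h, for lists with at least 10 members above background on all 4 arrays (some lists are not shown), ordered by the median change; the number of members is in brackets and dashed lines mark all such genes. On the 75th percentile scale ribosomal protein genes reach the largest share of rises, 77.2% (61 genes, against 0 to 3 with the other scalings), and Zfp and FoxO genes the largest shares of falls, 51.9% and 52.4%.

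Cell cycle genes moved little in 2 h on the 75th percentile scale. Of 48 replication genes 5 rose, 6 fell and 37 did not pass (median 0.06, -0.39 to 0.06 over the scalings). Of 38 mitotic genes 1 rose (2.63%), 8 fell (21.1%) and 29 did not pass (median -0.07, -0.52 to -0.07 over the scalings). All genes on all 4 arrays gave 21.9% and 15.6%. Neither list had a change of 2-fold. Among the other scalings, 4 to 39 replication genes and 0 to 35 mitotic genes fell. Mki67, which encodes the proliferation antigen Ki-67, gave 18850 and 18211 in untreated cells and 12945 and 12843 at 2 h (-0.52 ± 0.06). Cdt1, the licensing factor of replication origins, gave 9368 and 9963 in untreated cells and 16085 and 16680 at 2 h (0.76 ± 0.06), and Mcm2, a subunit of the replicative helicase, 4787 and 5110.4 in untreated cells and 4793 and 4979 at 2 h (-0.02 ± 0.07, adjusted p = 0.852). The largest falls among 32 G1, Myc and E2F genes were in the atypical repressor E2f7 (-1.19 ± 0.06) and its paralog E2f8 (-1.21 ± 0.06), the latter turning to 0.08 when all probes of the gene were averaged.

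Abundant housekeeping transcripts rose slightly on the 75th percentile scale. Of 79 cytosolic ribosomal protein genes 61 rose, 0 fell and 18 did not pass (median 0.37, below 0 with spike-in scaling). These counts rest on the brightest probe of each gene. Rpl11, Rps13, Rps12 and Rps24 had probes that passed in opposite directions, with falls of -0.95, -0.70, -0.56 and -0.53. The rises on probes of these genes were smaller, at 0.31, 0.44, 0.30 and 0.38. With each of the other scalings 0 to 3 of the ribosomal protein genes rose and 0 to 3 fell. Of 39 proteasome genes 19 rose, 0 fell and 20 did not pass (median 0.28, below 0 with no scaling and spike-in scaling). Under the other scalings 0 to 4 of the proteasome genes rose and 0 to 10 fell. Of 88 respiratory chain genes 41 rose, 0 fell and 47 did not pass (median 0.30, below 0 with no scaling and spike-in scaling). The other scalings gave 0 to 7 rises and 0 to 16 falls of respiratory chain genes. None of these genes changed 2-fold. Rpl39, a ribosomal protein gene, gave 69015 and 71680 in untreated cells and 96256 and 101970 at 2 h (0.49 ± 0.06). Of 61 autophagy and lysosome genes 26 rose, 4 fell and 31 did not pass, and the falls included Ulk3, an autophagy-related kinase gene, with 1631 and 1569 in untreated cells and 373 and 378 at 2 h (-2.09 ± 0.05).

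The largest rises included genes best known from other tissues. Slc5a2, the glucose carrier of the kidney tubule, gave 27.8 and 21.2 in untreated cells and 2318 and 2166 at 2 h (6.53 ± 0.15, adjusted p = 0.000112). Rasgef1a, an exchange factor that activates Ras-family proteins, gave 57.3 and 57.0 in untreated cells and 2912 and 3101 at 2 h (5.72 ± 0.06, with 3.89 on its other probe). Amhr2, the receptor of anti-Müllerian hormone, gave 28.9 and 29.1 in untreated cells and 1521 and 1390.4 at 2 h (5.65 ± 0.07). In each of these the untreated arrays lay near the background and the 2 h arrays above the 75th percentile of the array. Stmn4, a neuronal stathmin, started higher and gave 322 and 343 in untreated cells and 8848 and 8319 at 2 h (4.69 ± 0.07), and Letm2, a mitochondrial protein's gene, gave 118 and 127 in untreated cells and 2759 and 2736 at 2 h (4.49 ± 0.06), but with 0.64 on its other probe. Ltb, the lymphotoxin of lymphocytes, rose by 4.32 ± 0.10 and Sema4a, a semaphorin, by 5.05 ± 0.15.

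Of 506 genes above background on both 2 h arrays and on neither untreated array, 465 rose, and of 150 in the opposite state 98 fell. These counts follow from the states themselves. Vil1 (villin, of intestinal microvilli) gave 8.18 and 6.13 in untreated cells and 1247 and 1853 at 2 h, at least 75.7-fold, and Ampd1, the muscle AMP deaminase, 8.24 and 13.7 in untreated cells and 1114 and 1079 at 2 h, at least 54.6-fold. The germ cell gene Stra8 gave 4.96 and 3.42 in untreated cells and 821 and 869 at 2 h, at least 42.0-fold, and Grb7, an adaptor of receptor kinases, 8.0 and 7.80 in untreated cells and 795 and 782 at 2 h, at least 39.2-fold. The untreated values of these genes were not well above background. In the other direction Ppp1r3c, a glycogen-targeting subunit, went from 84.3 and 89.0 to 6.53 and 5.70, at least 3.75-fold lower.

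Markers of other cell types were measured for comparison, and counts are of those above background on all 4 arrays. Of 14 endothelial markers 8 were, of which 3 rose and 0 fell. Summed signals are over all members tested, which include some not above background on all 4 arrays. A member that passed the filter only through the 2 h arrays had to raise such a sum, so no change is read from the sums. Of the 11 tested here, 8 were above background on both untreated arrays and 11 on both 2 h arrays. Over these 11, the sum of the list went from 11348 and 11168 to 17965 and 18099.6. Its defining members Cdh5, Tie1 and Sox17 were not well above background in either group. Of 14 macrophage and leukocyte markers 13 were, of which 4 rose and 0 fell. The summed signal of the 14 tested was 22904 and 21225 before and 25509 and 25315 after, with 13 above background on both untreated arrays and 14 on both 2 h arrays. Of 13 epithelial markers 7 were, and 3 rose, with Epcam, Cldn4, Esrp1 and Ovol1 not above background. The 9 epithelial markers tested summed to 3936 and 3587 before and 4895 and 4792 after, with 7 above background on both untreated arrays and 9 on both 2 h arrays. Of 12 muscle markers 7 were, and 3 rose, with Myod1, Myf5, Myf6, Pax7 and Ckm not above background. Of 10 pluripotent and germ cell markers 3 were, and 2 rose, Dppa5a (3.49 ± 0.09) among them, while Pou5f1, Nanog, Zfp42, Dppa3 and Sycp3 were not above background. Of 9 neuron and glia markers measured 2 rose and 2 fell, of 4 erythroid markers 2 rose, and of 7 adipocyte markers 2 rose. Whether cells of these types had a part in the rises was not tested.

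Rises of at least 2-fold were more frequent in genes that lay close behind another active gene on the same strand. For 10608 genes with a symbol, above background on all 4 arrays, placed on a strand and not overlapping another detected gene, 3.42% rose at least 2-fold and 2.59% fell at least 2-fold. The gap was measured to the nearest gene well above background in untreated cells, in each of 4 orientations. Where that gene lay upstream on the same strand, 5.11% of genes with a gap of up to 1 kb rose at least 2-fold, 7.70% at 1 to 5 kb, 6.22% at 5 to 10 kb, 5.40% at 10 to 20 kb and 4.95% at 20 to 50 kb. At 50 to 100 kb the share was 2.40% and beyond 100 kb 1.50%. In the other 3 orientations it stayed between 2.40% and 4.51% over the same bins. No test was run on these shares, since neighbouring genes are not independent replicates.

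**Figure D4:**
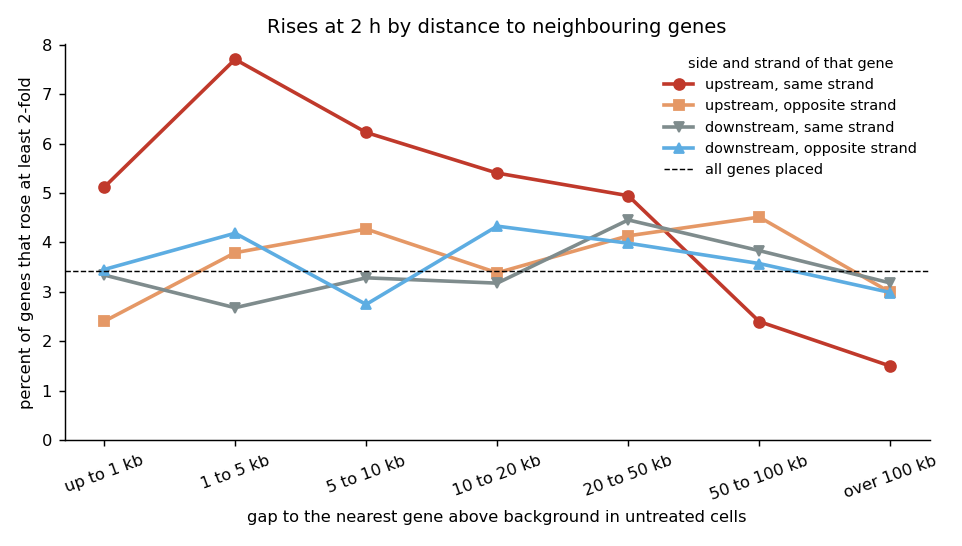
Percent of genes that rose at least 2-fold at 2 h (vertical axis) by the gap to the nearest gene above background in untreated cells, with 1 line for each side and strand of that gene and a dashed line at 3.42% for all 10608 genes placed. The red line, for an upstream gene on the same strand, runs from 7.70% at 1 to 5 kb to 1.50% beyond 100 kb, and the other 3 lines stay between 2.40% and 4.51%.

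Of the 363 genes in these bins that rose at least 2-fold, 178 (49.0%) had such an upstream gene within 20 kb, against 26.7% of all 10608 genes and 22.9% of the 275 that fell at least 2-fold. Of 115 genes that rose at least 4-fold, 75 (65.2%) had one. For a downstream gene on the same strand the share among the 363 was 24.5%, against 27.3% of all. For an upstream gene on the opposite strand it was 21.2%, against 22.9%. The distance of 20 kb was chosen after seeing the data. At 5 kb the share was 23.4% against 11.5% of all genes, and at 50 kb 71.3% against 42.2%.

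The difference lay among dim genes. In the dimmest quintile by untreated level, 26.4% of 575 genes with an upstream gene within 20 kb rose at least 2-fold, against 7.76% of 1547 without one. A looser count took any rise of at least 2-fold between the arrays of 1 slide, without the test. It gave 28.7% and 9.24% on slide 1 and 29.9% and 11.1% on slide 2. The median signal of the first set was 75.6 and 72.8 in untreated cells and 114 at 2 h on both slides, and that of the second 85.1 and 85.9 in untreated cells and 89.5 and 95.8 at 2 h. In the second dimmest quintile the shares were 3.97% and 1.73%. In the 3 brightest quintiles every share was below 1% and the order was reversed. From the middle to the brightest they were 0.74% and 0.95%, 0.17% and 0.92%, and 0.16% and 0.53%. The first share of each pair rests on 4, 1 and 1 rises. The untreated level that sets the quintiles also enters the change.

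The pairs behind these shares can be seen in single genes, whose upstream neighbours were named after their values were seen. Gzmm, a granzyme of cytotoxic lymphocytes, begins 0.621 kb behind Cdc34, a ubiquitin-conjugating enzyme gene. Gzmm gave 65.0 and 56.4 in untreated cells and 3024 and 2755 at 2 h (5.57 ± 0.12, adjusted p = 9.66e-05), and Cdc34 gave 3886 and 3536 and then 4049 and 3762 (0.07). The downstream gene was far higher on both 2 h arrays, while the ranges of its neighbour before and after lay close together. Isg20 lies 2.19 kb behind Aen, a p53-induced nuclease gene. Isg20 gave 306 and 309.9 in untreated cells and 4072 and 4034 at 2 h, and Aen gave 18926 and 18242 and then 17344 and 16783 (-0.12, with 0.44 and an adjusted p of 0.0199 on another probe). Col20a1, a fibril-associated collagen, lies 0.796 kb behind Arfgap1 and rose by 3.82 ± 0.08 while Arfgap1 changed by -1.03.

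Ovgp1, the oviduct glycoprotein, rose by 4.04 ± 0.07 at 4.04 kb behind Wdr77 (-0.23), and Lman1l, a lectin of the secretory pathway, by 4.93 ± 0.09 at 5.87 kb behind Csk (-0.41). Amhr2 lies 8.60 kb behind Sp1 (0.09) and Endou, a placental endoribonuclease gene that rose by 5.08 ± 0.14, 13.4 kb behind Rapgef3. Over the 75 pairs the upstream gene rose in 23 and fell in 8, with a median change of 0.18, and 7 of them changed 2-fold or more. Of all genes on all 4 arrays 21.9% rose and 15.6% fell, with a median change of 0.11. At 2-fold or more these shares were 3.91% and 2.82%. Whether the upstream genes differed from all genes was not tested. Not all large rises were of this kind: Rasgef1a, at 85.9 kb behind Hnrnpf, is far outside the 20 kb.

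**Figure D5:**
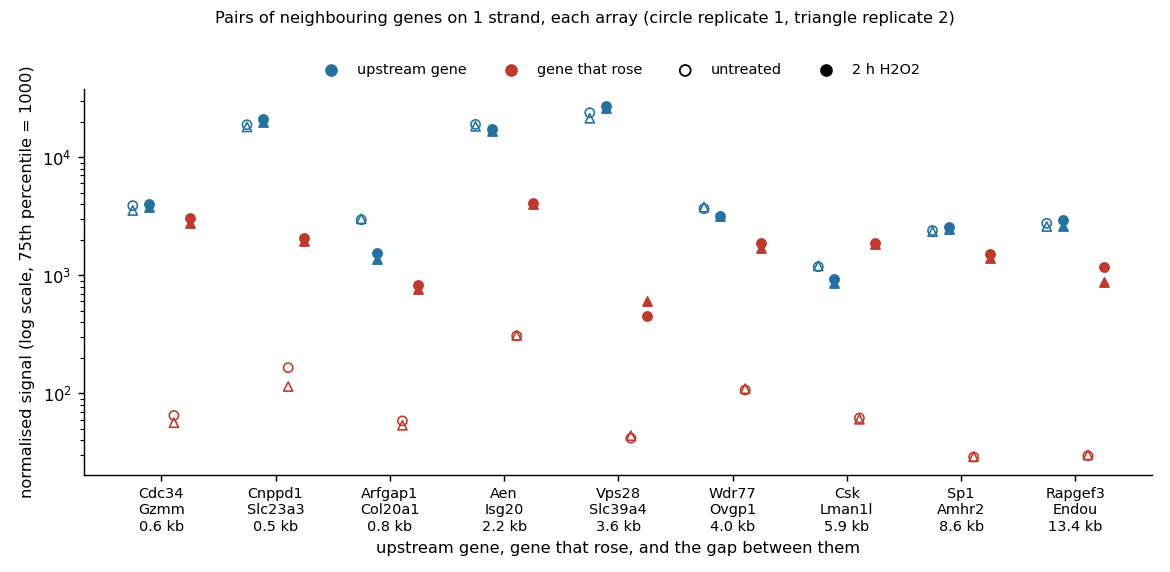
Normalised signal on each array (log axis) for 9 pairs of an upstream gene (blue) and the gene behind it on the same strand that rose (red), with open symbols for untreated cells, filled symbols for 2 h H2O2, circles for replicate 1 and triangles for replicate 2; the gap is under each pair. Arfgap1 fell by 1.03 on the log2 scale, the other upstream genes shown changed by less than 2-fold, and every red gene rose by more than 8-fold.

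Gene length went with the share that changed. Among genes above background on all 4 arrays, 5.42% of those spanning under 5 kb rose at least 2-fold, and the share was lower in each longer bin, down to 1.74% of those over 100 kb. The share that fell at least 2-fold was 2.71% in the shortest bin, 4.08% at 5 to 10 kb and 1.28% over 100 kb. Spans came from the RefSeq gene table, and level and span are related, so the part of each was not tested.

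Different probes of a gene did not always move alike. Of 5592 genes with at least 2 probes above background on all 4 arrays, 1135 had 2 or more probes that passed in 1 direction, 1538 had a single passing probe, 2792 had none, and 127 had passing probes in opposite directions. Trpc2, a cation channel gene, had 1.28 on one probe and -1.22 on another, Stard9, a kinesin-related gene, 2.21 and -1.13, and Faap100, of the Fanconi core complex, 1.22 and -1.10. Among genes named with a single value, other probes of Col1a1, Sesn3, Brca1, Brca2, Atm, Lig4, Rnf168 and Hoxb9 had changes of the same sign that did not pass. The brightest probe stood for a gene throughout, so single-gene values here are values of that probe.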

How the data were processed

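Per the labels, RNA extracted with Trizol was labelled with Cy3 and hybridised to one-colour Agilent arrays. Per the file headers, the deposited processed signal is a fluorescence intensity from Feature Extraction 9.5.3.1, with spatial and multiplicative detrending on and background correction off, made array by array. The deposited value table equals this intensity within 0.0005, on a linear scale with no centring, with column medians of 53.6 to 65.3.

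From the deposited intensity, log2 values were computed here, less the 75th percentile of the 43379 non-control spots on that array. Outlier spots were left out and repeated probes averaged. Names came from a RefSeq gene table, and 8455 of 41174 probes kept the name in the file. The brightest probe stood for a gene. A gene was tested if either of the groups, or the 4 h group, had it well above background on all its arrays. The fit in limma 3.58.1 (R 4.3.3) used the 6 arrays together, with 3 residual and 1.64 prior degrees of freedom and Benjamini-Hochberg adjustment over all genes at 0.05. The script was tested on simulated data. Lists are described by counts and medians, without a test, and some results are not reported here.

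Each array had 57.3% to 68.0% of spots well above background and a 75th percentile of 675 to 883. Replicates correlated at r = 0.992 to 0.994 and no spot was saturated. Precision is limited by the number of arrays. "At least N-fold" sets the brighter group's mean against the higher of each dim array's lowest signal well above background and the gene's own value.

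Replicate numbers equal the slide per the file headers. Deviations of same-numbered arrays correlated at 0.24, 0.20 and 0.24, so the slide was used as a block in an alternative. Other alternatives changed the scaling, the background correction, the filter, the probe rule, the fold threshold and the arrays used.

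The members and the lists were chosen with earlier results of these data known. Genes named include the 20 largest rises and falls with a symbol. Those had to pass the test, be well above background on all 4 arrays and have groups that do not overlap. Further genes are up to 12 each way with a bounded fold and up to 6 each way per list that passed the test. Members of lists written out and up to 8 genes whose probes disagree were added. Members beyond these ranks, such as Cat, Trp53, Atf4 and Ptprc, were given for their role, and the upstream genes Cdc34, Arfgap1, Wdr77, Csk and Sp1 lie outside the rule. Both were chosen after their values were seen. Probe positions, whose build is not stated, and RefSeq positions served for gaps and spans alone. Promoters are from RefSeq (GRCm38.p6), and 74.2% of the 2-fold rises above background on all 4 arrays had one.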

Additional observations from a re-analysis of the deposited data

How the results depend on the processing

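The genes that rose numbered 4088 and became 2578 with quantile normalization, 1843 with median centring, 1528 with no scaling, 1458 with spike-in scaling, 816 with normexp and the 75th percentile, 2711 with normexp and quantile normalization, 2341 with no filter on dim probes and 1251 at 2-fold or more. The genes that fell numbered 2633 and became 5704 with no scaling, 9194 with spike-in scaling, 747 with normexp and the 75th percentile, 1700 with no filter and 585 at 2-fold or more. Without 1 array in turn the rises ranged from 1933 to 3531 and the falls from 1399 to 2422, and an array left alone in its group is assumed to vary like the others. With the replicate block 5780 rose and 3292 fell, and 6608 of the 6721 calls kept their direction. Beyond the blocked p-values given with the results, the block changed no call of a gene named. The cause of these differences was not tested.

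Of 182 genes given with a value, 168 rose or fell. Of these 119 kept direction and call in all 18 alternatives that gave a value, 43 kept the direction and lost the call in 1 or more, and 6 reversed. Col1a1 had -0.042 with quantile normalization, -0.011 with no scaling, -0.13 with spike-in scaling and -0.025 with normexp and quantile. Vim had -0.028 with quantile normalization, -0.061 with spike-in scaling and -0.016 with normexp and quantile, and Nqo1 had -0.067 with no scaling and -0.18 with spike-in scaling, where Irf2 had -0.084. Atf4 and Sp1, which had not passed, had -0.37 and -0.36 with spike-in scaling, as Cdc34 had -0.38 there and -0.26 with no scaling. With a gene's probes averaged, Mdm4 had 0.10 and E2f8 0.082. The share of 2-fold rises with an upstream gene within 20 kb, 49.0%, was 23.4% at 5 kb and 71.3% at 50 kb, distances chosen after seeing the data.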

Other observations

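Genes of metabolism and timing outside the groups above showed few changes of 2-fold. Of 17 circadian clock genes 5 rose, 2 fell and 10 did not pass. Arntl, which encodes the activator Bmal1, gave 2048 and 1967 in untreated cells and 3676 and 3571 at 2 h (0.85 ± 0.06), and the repressor gene Cry2 gave 704 and 727 in untreated cells and 359 and 339.8 at 2 h (-1.03 ± 0.06), so the activator was higher and the repressor lower on both 2 h arrays. Of 34 glycolysis and hypoxia genes 12 rose, 4 fell and 18 did not pass, and Adm, which encodes the vasodilator adrenomedullin, fell from 3696 and 3588 to 1568 and 1435 (-1.28 ± 0.07) in the cells in which Vegfa, another hypoxia target, rose by 0.84 ± 0.05. Of 31 cholesterol and fatty acid synthesis genes 2 rose, 5 fell and 24 did not pass, with no change of 2-fold.

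Bright transcripts among the largest falls included the nuclear RNA Neat1, the scaffold of paraspeckles, which gave 15937 and 14765 in untreated cells and 4185 and 3828 at 2 h (-1.94 ± 0.09), and Nuak1, a kinase of the AMPK family, which gave 10797 and 10875 in untreated cells and 2858 and 3027 at 2 h (-1.88 ± 0.06, with -1.89 on its other probe). Of 1053 olfactory and taste receptor genes on the array 103 were tested, and of the 63 above background on all 4 arrays 6 rose, 1 fell and 56 did not pass, against 21.9% and 15.6% of all genes.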
